A study of Homo sapiens with 9 samples.

Results

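The respiratory chain of Z138 cells was followed across 9 RNA-seq libraries. Z138 is an established mantle cell lymphoma line, and SOX11 is a transcription factor that most lymphomas of this B cell type express. Genes were taken by symbol, namely those whose names begin with NDUF and a subunit letter and number, with COX and a number, with UQCR or with ATP5, the genes SDHA to SDHD, the protein-coding MT- genes, and CYCS and CYC1. The rule found 119 of the 16586 genes in the deposited table. They were 93 nuclear genes, 13 mitochondrially encoded genes, 11 pseudogenes and 2 read-through loci. The rescue group, with the genotype SOX11KO+SOX11Rescue, the knockout group, with the genotype SOX11KO, and the wild-type group, with the genotype WT, had 3 libraries each. All were Z138 cells in the same medium, so the rescue carried the knockout as well. The labels do not say how the knockout and the rescue were made, or whether either line is a single clone. The labels do not say that replicates were separate cultures, so p-values measure the spread between these libraries only.

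Respiratory complexes I and II pass electrons from NADH and succinate to ubiquinone, complex III passes them on to cytochrome c, and complex IV passes them to oxygen. Complexes I, III and IV pump protons across the inner mitochondrial membrane as they work, and complex V, the ATP synthase, uses the proton gradient to make ATP. Mitochondrial DNA encodes core subunits of complexes I, III, IV and V, while all other subunits, the whole of complex II and cytochrome c are encoded in the nucleus. Mitochondrial transcripts are made from both strands as long precursors that are then cut, so that neighbouring genes share their transcription.

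SOX11 was measured as a check of the labels and averaged 13127 ± 627 normalized counts in the rescue, 1033 ± 262 in the knockout and 3549 ± 474 in wild type (SD, n = 3 each). A normalized count is a read count scaled to a common depth, recovered here from the deposited log2 values. The knockout libraries thus still held SOX11 transcript, and the rescue libraries held more than wild type. Estimated depth was 30813000 to 40788200 reads per library. B cell markers summed to 1233 to 1522 CPM (counts scaled to a fixed library total) in every library. T cell markers summed to 9.66 to 18.5 CPM, monocyte markers to 0.298 to 1.18 CPM, and epithelial and fibroblast markers to 22.1 to 38.2 CPM. Of the 119 genes, 107 had at least 1 CPM in at least 3 libraries and were tested with limma on the deposited log2 values, with p-values adjusted over all 11542 genes tested and called below 0.05. These were 90 of the 93 nuclear genes, all 13 mitochondrial genes, 2 pseudogenes and both read-through loci. The 12 that were not tested were UQCRHL, COX6B2, ATP5MGL and 9 pseudogenes, whose highest value in any library was 18.5 normalized counts.

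Per kilobase of transcript, the mitochondrially encoded subunits lay far above the nuclear subunits of the same complex. Their median over the 9 libraries was 40880 normalized counts per kilobase for the 7 mitochondrial subunits of complex I, against 2904 for the 36 nuclear ones, a ratio of 14.1. In complex IV the ratio was 17.8, with a median of 147200 against 8250. For complex V it was 9.90, with 79170 against 7996. MT-CYB, the cytochrome b of complex III, stood at 25260 against a nuclear median of 4916, a ratio of 5.14. Complex II, with no mitochondrial subunit, had a median of 4884.

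**Figure D1:**
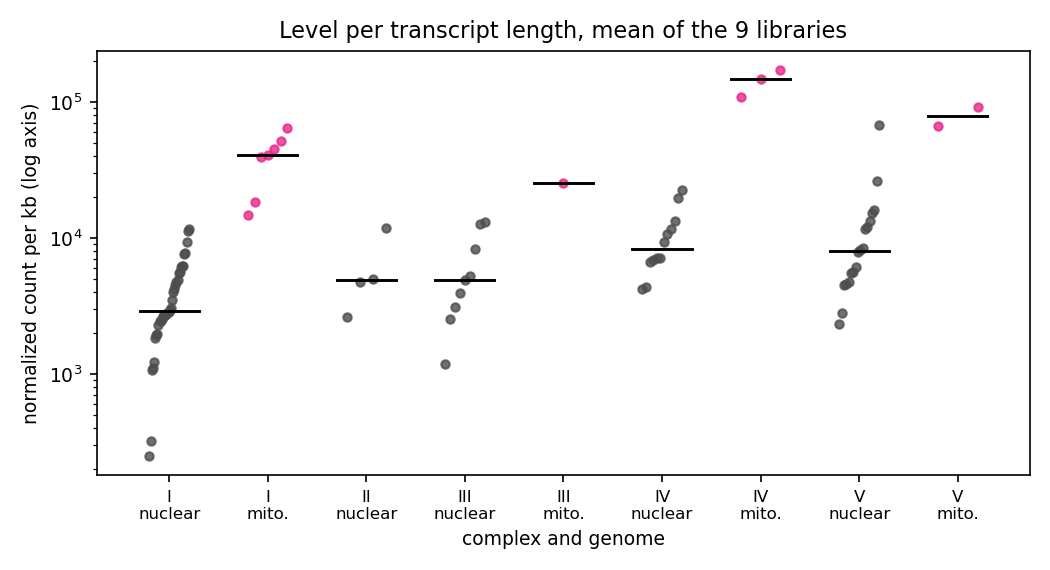
Level of each respiratory chain subunit per kilobase of transcript, as the mean normalized count of the 9 libraries divided by the median length of the gene's transcripts (log axis), by complex and by the genome that encodes it. Each point is 1 gene and each bar the median of its class; mitochondrially encoded classes lie above the nuclear class of the same complex, 40880 against 2904 in complex I.

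MT-CO3 had the highest level of all at 171966 normalized counts per kilobase, followed by MT-CO2 at 147154 and MT-CO1 at 108769, the 3 core subunits of complex IV. Among the mitochondrial genes MT-ND5 was lowest at 14758, with MT-ND6, the only one encoded on the other strand, next at 18568. ATP5F1B, the catalytic beta subunit of the ATP synthase, led the nuclear genes with 68369 normalized counts per kilobase, which exceeded 9 of the 13 mitochondrial genes. Lowest among the tested nuclear genes was NDUFA4L2, a paralog of the complex IV subunit NDUFA4, with 109.03 per kilobase against 4233 for NDUFA4 itself. Of the tissue-specific subunit pairs, COX4I1, COX6A1, COX6B1, COX7A2, COX7B and COX8A were all tested. COX6B2, the testis isoform partner of COX6B1, stayed between 4.42 and 12.7 normalized counts per library. The partners of the other 5 were not among the genes that the rule found in the deposited table.

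The 93 nuclear genes took 1.23%, 1.21% and 1.24% of all normalized counts in rescue libraries 1, 2 and 3, against 1.37%, 1.36% and 1.42% in the knockout and 1.26%, 1.34% and 1.30% in wild type. Every knockout library lay above every rescue and every wild-type library, and every rescue library lay below every wild-type library. The 13 mitochondrial genes took 2.00%, 2.20% and 2.82% in the rescue, against 2.18%, 2.25% and 2.05% in the knockout and 1.51%, 1.84% and 2.46% in wild type. Here the summed levels overlapped in all 3 comparisons, and the span within the rescue and within wild type exceeded the distance between any pair of group means. In bulk RNA a lower summed share from fewer transcripts per cell cannot be told apart from one that follows a change in the rest of the RNA.

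**Figure D2:**
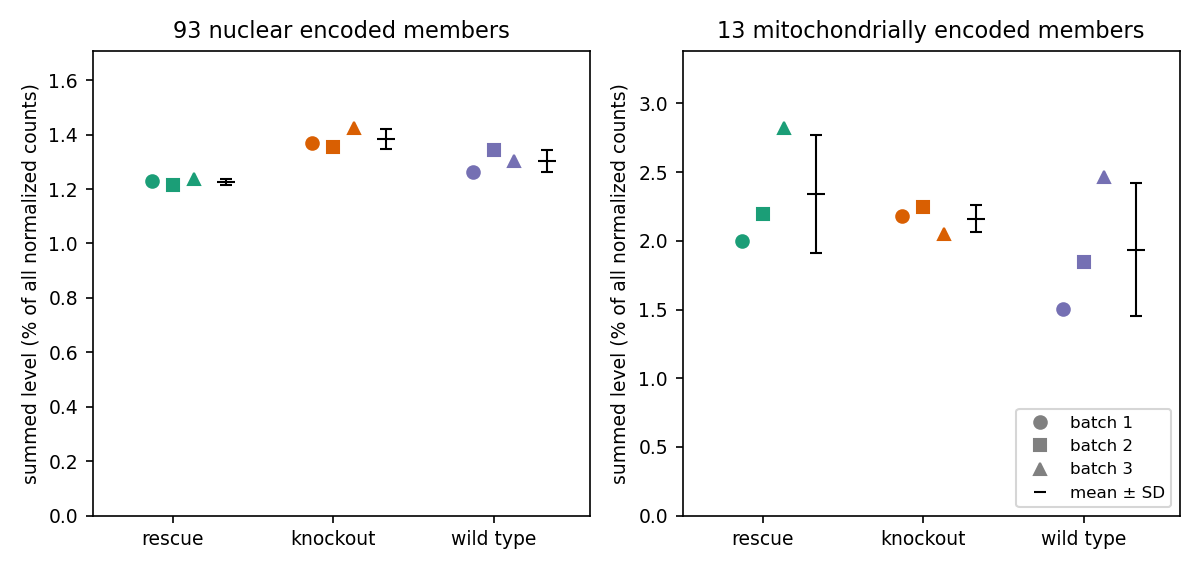
Summed level of the 93 nuclear genes (left) and the 13 mitochondrially encoded genes (right), as a percent of all normalized counts of a library, in rescue, knockout and wild type. Symbols mark the batch, and bars show the mean ± SD of 3 libraries; the nuclear sum lies at 1.21% to 1.24% in the rescue and at 1.36% to 1.42% in the knockout, while the mitochondrial sum overlaps between groups.

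In the rescue against the knockout, 32 of the 90 tested nuclear genes fell and 0 rose, while 0 of the 13 mitochondrial genes passed the test in either direction. That is 35.6% of the nuclear genes, beside 10.7% of all genes tested that were called lower and 11.5% called higher in this comparison, 22.1% in all. The falls were small, from 1.12-fold to 1.45-fold with a median of 1.22-fold, and the 3 rescue libraries lay below the 3 knockout libraries for each of the 32. Over all 90 nuclear genes, 66 had rescue libraries wholly below and 2 wholly above the knockout, beside 21.8% and 20.0% of all genes tested. The log2 difference was below 0 for 83 of the 90, beside 51.8% of all genes, and its median was -0.13, against -0.0065 over all genes. The other 7, with values above 0, were NDUFB4, NDUFB9, NDUFS5, UQCRC1, COX18, ATP5F1E and ATP5MC2, whose smallest adjusted p was 0.138 by limma. At an unadjusted p under 0.05, 49 of the 90 passed in either direction. The share of all genes at this cut was not counted, here or below. The count of members called lower, 33 with the pseudogene NDUFV2P1, was 14 without knockout library 3, 18 without knockout library 1, 15 without rescue library 2 and 17 without rescue library 3. It was 12 without batch 1 and 8 without batch 3, settings added after seeing the data. The labels give each library a batch equal to its replicate number. With that number as a block 40 of the 107 tested members fell, 39 of them among the 90 nuclear genes, and 0 rose. Of all 11542 genes, 1795 were called lower and 1806 higher, 31.2% in either direction.

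**Figure D3:**
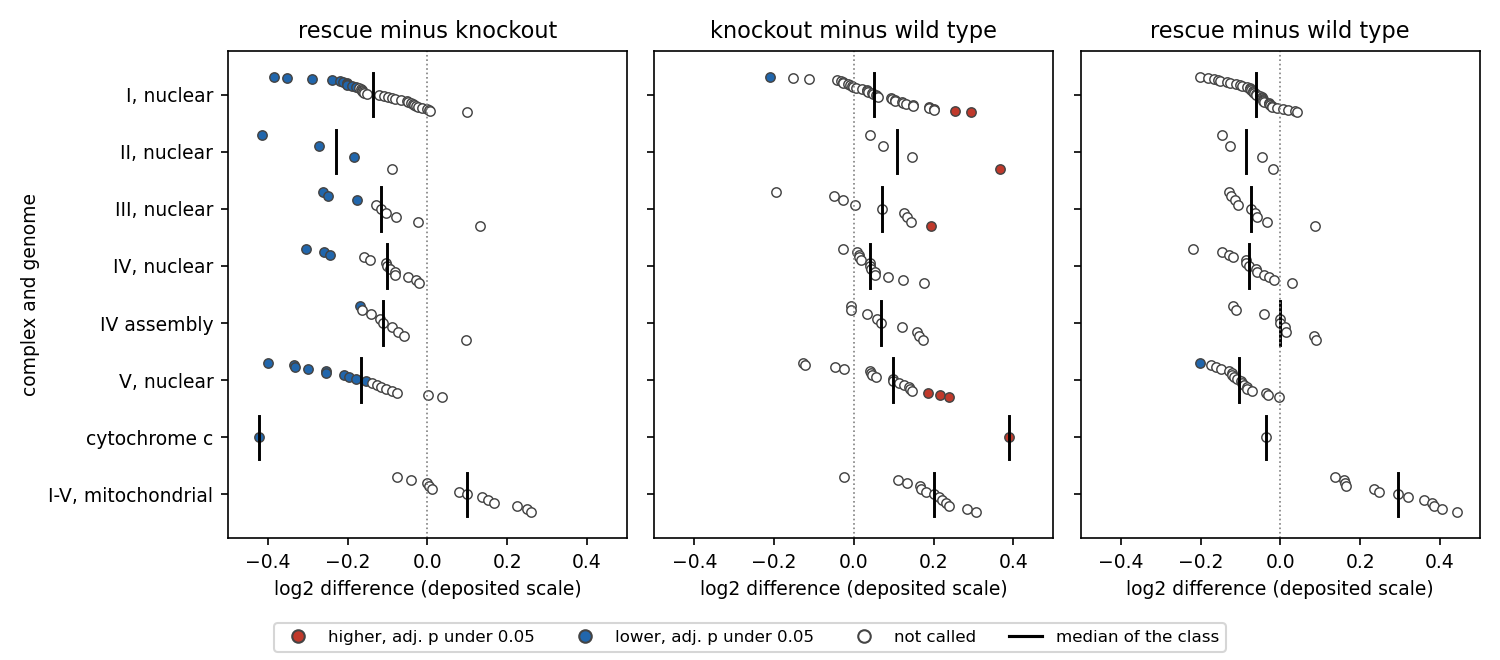
Log2 difference on the deposited scale for each tested respiratory chain gene, by complex and genome, in the rescue minus knockout, knockout minus wild type and rescue minus wild type comparisons. Filled points passed limma's adjusted p of 0.05, red higher and blue lower, and bars are class medians; in rescue minus knockout 32 nuclear points are blue and no mitochondrial point is filled.

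Among the nuclear genes called between rescue and knockout, cytochrome c had the largest log2 difference. CYCS, which carries electrons from complex III to complex IV and takes part in apoptosis when it leaves the mitochondrion (ENSG00000172115.9, GRCh38 chromosome 7, 25120091 to 25125361, minus strand), had 16243, 14726 and 14117 normalized counts in the rescue, against 20582, 20488 and 20068 in the knockout and 15620, 15069 and 15483 in wild type. The 3 knockout libraries lay above the other 6, and rescue and wild type overlapped. CYCS was 1.36-fold lower in the rescue than in the knockout, a log2 difference of -0.42 (SE 0.054, limma adjusted p = 0.000234), and 1.32-fold higher in the knockout than in wild type (log2 difference 0.39, adjusted p = 0.000645). Both comparisons use the same knockout libraries, here and below, and so are not independent.

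Complex II had the largest share of its genes called, 3 of 4 lower in the rescue. SDHD, a membrane anchor of the complex that helps to bind ubiquinone (ENSG00000204370.12, chromosome 11, 112086773 to 112120013, plus strand), had 1952, 1855 and 2005 normalized counts in the rescue, against 2851, 2880 and 2687 in the knockout and 1975, 1832 and 2278 in wild type. All knockout libraries were high, with rescue and wild type overlapping below them. It was 1.45-fold lower in the rescue than in the knockout (log2 difference -0.41, SE 0.063, limma adjusted p = 0.000795) and 1.38-fold higher in the knockout than in wild type (adjusted p = 0.00269). SDHB, the iron-sulfur subunit, had 3202, 3010 and 3226 normalized counts in the rescue, against 3914, 3826 and 4101 in the knockout and 3298, 3706 and 3502 in wild type, without overlap between any groups. SDHB fell 1.25-fold in the rescue against the knockout (limma adjusted p = 0.0036). The flavoprotein SDHA fell 1.15-fold (adjusted p = 0.0296), and SDHC, the other anchor, averaged 5299 ± 42.3 in the rescue and 5687 ± 116.7 in the knockout with an adjusted p of 0.184.

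**Figure D4:**
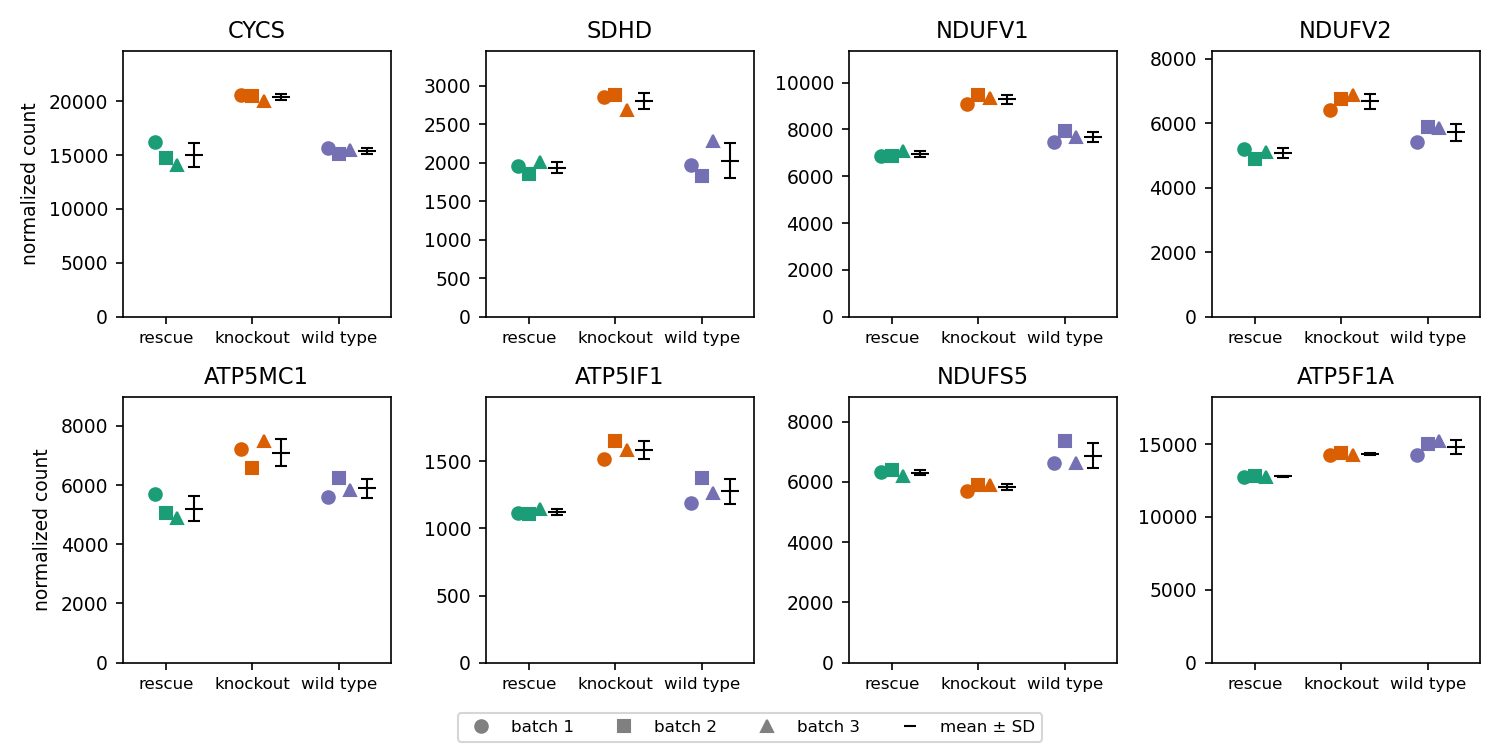
Normalized counts of 8 nuclear respiratory chain genes by group, with 3 libraries each, symbols for the batch and bars for the mean ± SD. CYCS, SDHD, NDUFV1, NDUFV2, ATP5MC1 and ATP5IF1 are high in all 3 knockout libraries, NDUFS5 is low in them, and ATP5F1A is low in the 3 rescue libraries.

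In complex I, 11 of the 36 nuclear subunits taken by the symbol rule fell in the rescue against the knockout. They were 4 of the 7 nuclear core subunits, which hold the flavin and the iron-sulfur clusters, and 7 of the 29 accessory subunits. NDUFV1, the flavin-binding subunit that takes electrons from NADH (ENSG00000167792.13, chromosome 11, 67605653 to 67612554, plus strand), had 6875, 6853 and 7100 normalized counts in the rescue, against 9086, 9473 and 9331 in the knockout and 7469, 7921 and 7660 in wild type. No group overlapped another, with the knockout highest and the rescue lowest. Its rescue to knockout log2 difference of -0.39, or 1.34-fold, had the smallest adjusted p of all members (SE 0.044, limma adjusted p = 0.00011), and it was 1.21-fold higher in the knockout than in wild type (adjusted p = 0.00304). NDUFV2, its iron-sulfur partner in the same NADH-binding module, had 5212, 4892 and 5119 normalized counts in the rescue, against 6417, 6758 and 6876 in the knockout and 5412, 5894 and 5857 in wild type. Again the 3 groups did not overlap, and the fall was 1.32-fold in the rescue against the knockout (limma adjusted p = 0.00052).

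The iron-sulfur core subunit NDUFS1 was 1.17-fold lower in the rescue than in the knockout, with a limma adjusted p of 0.0489. The calls of NDUFS1 and of the accessory subunit NDUFB8 were each lost when any of 7 of the 9 libraries was left out. Each of the 7 nuclear core subunits had a rescue mean below the knockout mean, NDUFS3 with the smallest difference at 1391 ± 3.46 against 1487 ± 33.9 normalized counts (adjusted p = 0.419). The accessory subunits that fell were NDUFB5 (1.29-fold), NDUFB7 (1.24-fold), NDUFA7 (1.23-fold), NDUFA2 (1.21-fold), NDUFB8 (1.19-fold), NDUFA10 (1.18-fold) and NDUFA9 (1.16-fold). NDUFB4 averaged 2664 ± 7.74 in the rescue and 2653 ± 11.97 in the knockout, a difference larger than the rescue SD. NDUFB9 averaged 5750 ± 48.5 and 5726 ± 261.8, a difference smaller than either SD. Neither of these membrane-arm subunits was called. NDUFV2P1, a processed copy of NDUFV2, was also called lower (1.42-fold, adjusted p = 0.0334), and reads of the parent and the copy may be exchanged.

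In complex III, 3 of 9 nuclear genes fell in the rescue against the knockout. UQCRC2, a core protein of the complex, had 6988, 6885 and 7045 normalized counts in the rescue, against 8336, 8481 and 8705 in the knockout and 7243, 7719 and 8139 in wild type. The groups were separate, and UQCRC2 was 1.22-fold lower in the rescue than in the knockout (limma adjusted p = 0.00328). Cytochrome c1, CYC1, fell 1.21-fold (adjusted p = 0.0188) and the Rieske iron-sulfur protein UQCRFS1 1.15-fold (adjusted p = 0.0221). UQCRC1, the other core protein, went the other way by value, with means of 6324 ± 84.7 in the rescue, 5705 ± 70.0 in the knockout and 6660 ± 624.7 in wild type (adjusted p = 0.138 for rescue against knockout). Of the settings tried, it was called higher in the rescue only when the fit held just those 6 libraries.

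Complex IV had 3 of its 13 tested nuclear subunits called lower in the rescue against the knockout, and 1 of 9 assembly factors taken by the COX rule. COX5B, a zinc-binding subunit, had 4477, 3857 and 4278 normalized counts in the rescue, against 5349, 5270 and 5425 in the knockout and 4414, 4800 and 4757 in wild type. The knockout stood above both other groups, which overlapped, and the fall in the rescue was 1.27-fold (limma adjusted p = 0.00284). COX7B and NDUFA4 fell 1.22-fold each (adjusted p = 0.0218 and 0.0321). COX14, which assists the synthesis and assembly of MT-CO1, fell 1.23-fold (adjusted p = 0.0443). COX4I1, the most abundant nuclear subunit of the complex by count, averaged 13674 ± 360.0 in the rescue and 14517 ± 690.8 in the knockout and was not called.

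The ATP synthase had 10 of 18 nuclear genes called lower in the rescue against the knockout, spread over its parts. In the F1 head 3 of 5 fell, in the peripheral stalk 2 of 4, in the c ring 2 of 3 and in the remaining membrane part 2 of 5, and the inhibitor ATP5IF1 fell as well. ATP5F1B had 52969, 53693 and 53847 normalized counts in the rescue, against 63779, 64134 and 64091 in the knockout and 57198, 61064 and 55938 in wild type. The groups were separate, the knockout being highest, and the fall in the rescue was 1.20-fold (limma adjusted p = 0.00371). The alpha subunit ATP5F1A fell 1.12-fold and the gamma subunit ATP5F1C 1.15-fold. Of the stalk, ATP5PB (1.17-fold) and ATP5PF (1.17-fold) fell, and of the membrane part ATP5ME (1.29-fold) and ATP5MD (1.24-fold).

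The c ring, which turns as protons pass, is encoded by 3 genes with the same mature protein, and these did not move alike. ATP5MC1 had 5683, 5040 and 4888 normalized counts in the rescue, against 7221, 6582 and 7483 in the knockout and 5607, 6247 and 5838 in wild type. Knockout libraries were highest, rescue and wild type overlapped, and the fall in the rescue was 1.36-fold (limma adjusted p = 0.00131). ATP5MC3 fell 1.28-fold (adjusted p = 0.00131). ATP5MC2 averaged 12784 ± 360.6 in the rescue and 12452 ± 398.5 in the knockout, a difference within the spread (adjusted p = 0.67). ATP5IF1, which blocks the synthase from running backwards, had 1113, 1109 and 1144 normalized counts in the rescue, against 1514, 1649 and 1580 in the knockout and 1192, 1373 and 1260 in wild type. It fell 1.41-fold (limma adjusted p = 0.000999), and no group overlapped another.

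Promoter sequence is shown for CYCS, SDHD and COX5B, called genes of 3 different parts of the chain. On either strand, their windows hold GCGCATGC. This is a part of the palindromic binding motif of nuclear respiratory factor 1 (NRF1), a known activator of respiratory genes. The windows are RefSeq sequences on GRCh38.p14 from 250 bases before to 50 after the start, given on the gene's strand, with matches in capitals. In CYCS the capitals mark a partial NRF1 match, and in COX5B a partial NRF1 match and then a pair of ETS matches. In SDHD they mark partial NRF1 matches on both strands that overlap to read GCGCATGCGC, and then an ETS match.
CYCS promoter, chr7:25125211-25125510, minus strand: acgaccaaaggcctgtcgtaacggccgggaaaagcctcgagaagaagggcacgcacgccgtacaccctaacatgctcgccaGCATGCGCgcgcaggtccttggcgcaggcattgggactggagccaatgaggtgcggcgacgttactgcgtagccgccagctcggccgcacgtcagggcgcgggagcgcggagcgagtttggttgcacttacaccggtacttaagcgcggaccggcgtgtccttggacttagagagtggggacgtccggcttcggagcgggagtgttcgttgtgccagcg
SDHD promoter, chr11:112086623-112086922, plus strand: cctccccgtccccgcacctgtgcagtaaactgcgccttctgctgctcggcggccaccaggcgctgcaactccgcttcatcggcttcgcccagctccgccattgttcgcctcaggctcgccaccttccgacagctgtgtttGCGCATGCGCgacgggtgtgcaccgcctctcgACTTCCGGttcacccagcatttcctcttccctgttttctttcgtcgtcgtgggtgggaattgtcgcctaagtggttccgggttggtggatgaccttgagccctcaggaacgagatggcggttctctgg
COX5B promoter, chr2:97645812-97646111, plus strand: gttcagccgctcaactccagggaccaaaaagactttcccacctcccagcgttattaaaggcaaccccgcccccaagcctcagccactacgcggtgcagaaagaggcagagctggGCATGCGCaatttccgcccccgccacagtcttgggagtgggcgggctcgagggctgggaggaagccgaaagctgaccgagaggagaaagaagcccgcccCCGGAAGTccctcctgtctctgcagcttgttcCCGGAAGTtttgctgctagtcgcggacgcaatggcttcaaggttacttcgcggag

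Windows were found for 76 of the 93 nuclear genes, and 4 motifs were searched on both strands. The partial NRF1 motif GCGCATGC, which overlaps itself on the other strand, was in 16 windows, or 21.1%, beside 3.27% of all 27305 promoter windows. The ETS motif CCGGAAGT was in 13 (17.1%), beside 4.44%, the YY1 motif AAGATGGC in 12 (15.8%), beside 3.03%, and the E-box CACGTG in 8 (10.5%), beside 7.43%. Of 15843 protein-coding windows, 4.26% held the partial NRF1 motif, 6.19% the ETS motif, 3.91% the YY1 motif and 8.88% the E-box. For 27 genes with a window that fell in the rescue against the knockout, the counts in this order were 7, 4, 5 and 5. Among the 48 tested genes with a window that were not called, the counts were 9, 9, 7 and 3. A match is a description of the letters and not of a bound site.

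In the knockout against wild type, 10 of the 90 nuclear genes rose and 1 fell, and 0 of the 13 mitochondrial genes passed the test. All genes tested were called higher in 5.36% and lower in 7.37% of cases, 12.7% in all, so the 10 of 90 nuclear genes that rose stand beside 5.36%. Those that rose were CYCS (1.32-fold), SDHD (1.38-fold), NDUFV1 (1.21-fold), ATP5IF1 (1.24-fold), NDUFB5 (1.29-fold), NDUFV2 (1.17-fold), UQCRB (1.16-fold), ATP5MC1 (1.20-fold), NDUFA7 (1.20-fold) and ATP5MC3 (1.14-fold). UQCRB, a ubiquinone-binding protein of complex III, had 5733, 5652 and 6030 normalized counts in the knockout, against 4669, 5209 and 5098 in wild type, with 5370, 5296 and 5370 in the rescue. Its 3 groups were separate, with the rescue in the middle, and the limma adjusted p was 0.0277 for the knockout against wild type and 0.166 for the rescue against the knockout. The knockout libraries lay wholly above wild type for 29 of the 90 genes and wholly below it for 3, beside 14.7% and 14.8% of all genes. The log2 difference was above 0 for 69 of 90, with a median of 0.056 against 0.0048 over all genes, of which 48.3% lay below 0. The count called higher was 5, 6 and 3 without knockout library 1, 2 and 3 and 4 without wild-type library 1. It was 1 without batch 1 and 6 without batch 3, of which 4 were mitochondrial genes. Without batch 3, 2 of the 11 calls above were kept. CYCS, SDHD and NDUFV1 passed in all 9 fits that left out a single library. NDUFA7 and ATP5MC3 were each lost in 8 of the 9, and the other genes that rose in 2 to 4. With the replicate number as a block 20 of the 90 nuclear genes rose and 3 fell. Of all 11542 genes, 1172 were called higher and 1309 lower, 21.5% in either direction.

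NDUFS5, an accessory subunit of complex I, was the member that fell in the knockout. It had 5711, 5888 and 5902 normalized counts in the knockout, against 6633, 7351 and 6639 in wild type, with 6315, 6389 and 6207 in the rescue between them. The knockout and wild-type libraries did not overlap, and the fall was 1.18-fold (log2 difference -0.21, limma adjusted p = 0.0168). It was lost without knockout library 1. With the block, UQCRC1 and ATP5MC2 were called lower in the knockout as well.

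In the rescue against wild type, 1 of the 90 nuclear genes passed the test, beside 1.78% of all genes called lower and 2.3% called higher, 4.07% in all. ATP5F1A, the alpha subunit of the F1 head, had 12755, 12830 and 12757 normalized counts in the rescue, against 14245, 14988 and 15201 in wild type, with 14245, 14389 and 14267 in the knockout. The rescue libraries were the 3 lowest and close together. ATP5F1A was 1.16-fold lower in the rescue than in wild type (log2 difference -0.20, limma adjusted p = 0.0259), a call that was lost when only those 6 libraries were fitted and when any of 6 of the 9 libraries was left out. Over the 90 genes the difference was below 0 for 79, beside 50.0% of all genes, with a median of -0.070. For 22 of them the rescue lay wholly below wild type, beside 10.4% of all genes, and for 1 wholly above, beside 10.3%. With the replicate block 1 member was called lower and 0 higher. Of all 11542 genes, 437 were called lower and 493 higher, 8.06% in either direction.

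The mitochondrially encoded genes varied more between libraries of a group than the nuclear genes did. Their highest library exceeded the lowest by a median of 1.88-fold, from 1.21-fold for MT-ND3 to 2.52-fold for MT-ATP8, against 1.26-fold for the nuclear genes. The median coefficient of variation within a group was 17.9% in the rescue, 6.66% in the knockout and 25.3% in wild type, against 3.19%, 3.53% and 6.35% for the nuclear genes. Of the 13, 12 were highest in rescue library 3 and 12 were lowest in wild-type library 1. MT-ND3 was highest in knockout library 1 and lowest in wild-type library 2.

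**Figure D5:**
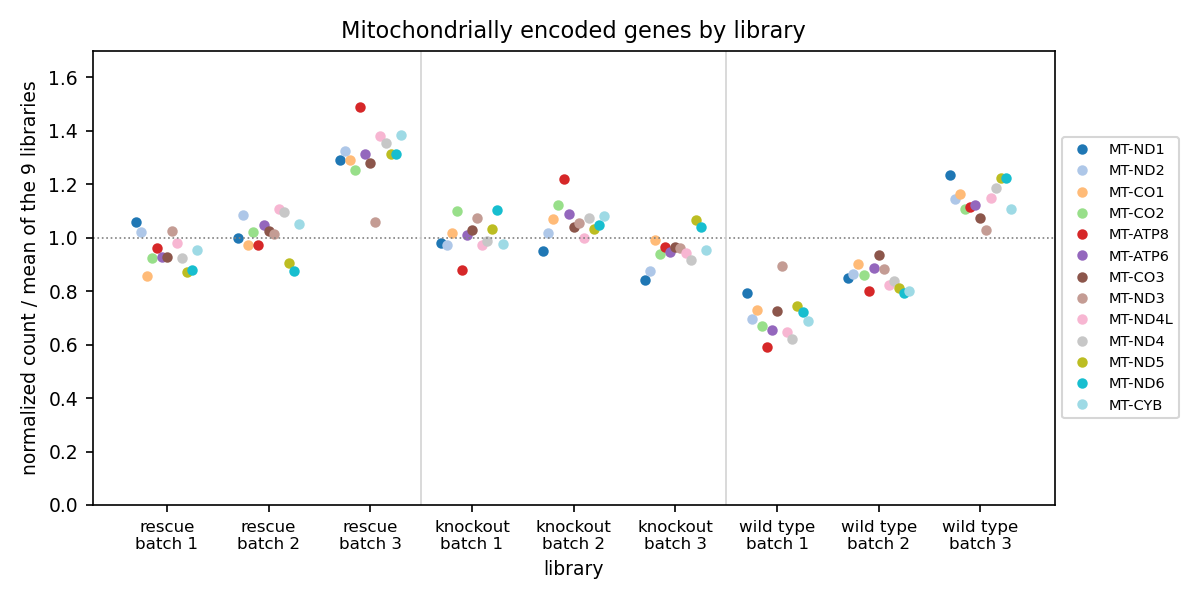
Level of the 13 mitochondrially encoded genes in each of the 9 libraries, as the normalized count divided by the gene's mean over all libraries, with genes in map order within each library. Rescue library 3 holds the highest value of 12 genes and wild-type library 1 the lowest of 12.

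MT-CO1, the catalytic subunit of complex IV, had 143967, 163197 and 216683 normalized counts in the rescue, against 170928, 179645 and 166319 in the knockout and 122340, 151500 and 194914 in wild type. MT-ND4, a proton-pumping subunit of complex I, had 82219, 97562 and 120336 in the rescue, against 87832, 95328 and 81304 in the knockout and 55086, 74631 and 105459 in wild type. MT-CYB had 27467, 30338 and 39943 in the rescue, against 28124, 31118 and 27523 in the knockout and 19830, 23128 and 31913 in wild type. In all 3 genes the third library was the highest of the rescue and of wild type and the lowest of the knockout, and all pairs of groups overlapped. MT-ND1 and MT-ND2, both of complex I, were the genes whose rescue libraries lay wholly above the knockout, with limma adjusted p-values of 0.233 and 0.276. MT-ND6, read from the opposite strand, had 8574, 8532 and 12816 in the rescue, against 10753, 10204 and 10145 in the knockout and 7022, 7742 and 11947 in wild type, the third library again being the highest of the rescue and of wild type.

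MT-CO2, which takes electrons from cytochrome c, had 92977, 102846 and 126310 normalized counts in the rescue, against 110580, 112902 and 94701 in the knockout and 67232, 86769 and 111561 in wild type. MT-CO3 had 125094, 138110 and 172705 in the rescue, against 138801, 140102 and 130111 in the knockout and 97666, 126035 and 144769 in wild type. Both had the order of libraries described for MT-CO1 within the rescue and within wild type. MT-ND3, the steadiest of the 13, had 14484, 14360 and 14960 in the rescue, against 15197, 14934 and 13624 in the knockout and 12644, 12515 and 14576 in wild type. MT-ND1 had 39631, 37423 and 48268 in the rescue, against 36715, 35578 and 31557 in the knockout and 29631, 31776 and 46133 in wild type. For both genes wild-type library 3 stood well above the other wild-type libraries.

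The comparisons of the mitochondrial genes were also made within batches. The summed share in the rescue minus that in the knockout was -0.179, -0.0501 and 0.766 percentage points in batches 1, 2 and 3, and 4, 4 and 13 of the 13 genes were higher in the rescue, 3 of them in all 3 batches. The knockout minus wild type was 0.674, 0.405 and -0.408 points, and 13, 13 and 0 of the 13 genes were higher in the knockout within batches 1, 2 and 3. The rescue minus wild type was 0.495, 0.355 and 0.358 points, and all 13 genes were higher in the rescue within each batch. The share of all genes higher in all 3 batches was not counted. None of the 13 passed limma's test between rescue and wild type, where 3 had an unadjusted p under 0.05, the median log2 difference was 0.29 and the smallest adjusted p was 0.242, for MT-ND4L, or 0.0553 with the replicate block. In the other comparisons 0 of the 13 had an unadjusted p under 0.05. Without wild-type library 3, MT-ND4L and MT-ND2 were called higher in the rescue (smallest adjusted p = 0.0328) and MT-ND3 was called higher in the knockout than in wild type (adjusted p = 0.0492).

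The mean difference between rescue and knockout in the mitochondrial share, 0.179 percentage points higher in the rescue, rested on rescue library 3 and was -0.061 without it. Leaving out batch 3, MT-ND5, MT-ND6, MT-CYB and MT-CO2 were called higher in the knockout than in wild type (smallest limma adjusted p = 0.00984). Estimated depth was 31995800 reads in rescue library 3 and 40788200 in wild-type library 1, the deepest of the 9. Knockout library 3, with the lowest mitochondrial share of its group, was the shallowest at 30813000 reads, and knockout library 1 had 40006900. Either a kit that selects RNA with a poly(A) tail or one that removes ribosomal RNA was used, per the labels' protocols, and the labels do not say which library had which. The part of depth and of the kit in these differences was not tested. The summed nuclear share in the rescue minus that in the knockout was -0.142, -0.141 and -0.188 points in batches 1, 2 and 3. By value, 74 of the 90 nuclear genes were lower in all 3, and the share of all genes that were so was not counted.

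Neighbouring mitochondrial genes share bases, which limits how far their counts can be separated. MT-ATP8 and MT-ATP6, both of complex V, overlap by 46 bases at chrM:8527-8572, and the shared stretch is shown since it covers 46 of the 207 bases of MT-ATP8; the capitals mark the start codon of MT-ATP6.
MT-ATP8 and MT-ATP6 overlap: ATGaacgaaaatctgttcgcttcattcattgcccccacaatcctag
MT-ATP8 had 13325, 13484 and 20606 normalized counts in the rescue, against 12191, 16890 and 13356 in the knockout and 8172, 11081 and 15426 in wild type, and MT-ATP6 had 57910, 65379 and 81803 in the rescue, against 62877, 67814 and 59052 in the knockout and 40813, 55197 and 69952 in wild type. Both were highest in rescue library 3 and lowest in wild-type library 1, and their groups overlapped in every comparison. MT-ND4L and MT-ND4 share 7 bases. The 21 nuclear pseudogene copies of mitochondrial genes in the table summed to 0.909% to 1.08% of the mitochondrial level in each library.

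Genes that serve the chain and were not taken by the symbol rule were counted by list in the same fits. The shares given above for all genes are the background. Their median log2 differences in the rescue against the knockout were -0.139 for mitochondrial DNA expression, -0.109 for complex I assembly, -0.0622 for the other assembly factors, -0.115 for ubiquinone synthesis, -0.0746 for regulators and -0.226 for the tricarboxylic acid cycle, beside -0.0065 over all genes. Among 29 genes of mitochondrial DNA transcription, replication and RNA processing, 10 fell and 0 rose in the rescue against the knockout. TFB1M, an rRNA methyltransferase of the mitochondrion, fell 1.58-fold (limma adjusted p = 0.00111), TFB2M, a transcription initiation factor, 1.27-fold (adjusted p = 0.0022), and TFAM, which packs and transcribes mitochondrial DNA, 1.27-fold (adjusted p = 0.00476). TFAM had 6294, 5742 and 5241 normalized counts in the rescue, against 7142, 7394 and 7453 in the knockout and 5578, 6227 and 6104 in wild type, all knockout libraries being above the other 6. The mitochondrial RNA polymerase POLRMT fell 1.17-fold (adjusted p = 0.0252). In the knockout against wild type 3 of the 29 rose, TFB1M (1.41-fold), TFAM (1.23-fold) and TBRG4 (1.17-fold), and 11 with the replicate block.

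Assembly factors were counted in the same way. In the rescue against the knockout, 6 of 20 genes listed for complex I assembly fell. Among them was NDUFAB1, an accessory subunit of complex I that the symbol rule did not take. Of 33 genes listed for complexes II to V, 6 fell, among them the copper chaperones SCO1 (1.21-fold) and SCO2 (1.44-fold). In either list 0 rose. In the knockout against wild type, 0 of the 20 passed in limma, with or without the replicate block, and 3 had an unadjusted p under 0.05, while of the 33 SCO1 (1.20-fold) and LYRM7 (1.69-fold) rose. LYRM7, an assembly factor of complex III, had 2426, 2263 and 2133 normalized counts in the knockout, against 1167, 855.2 and 2019 in wild type. The wild-type libraries were thus far apart. Of 13 ubiquinone synthesis genes, COQ8A (1.32-fold) and COQ3 (1.29-fold) fell and COQ10A rose (1.30-fold) in the rescue against the knockout, and COQ2 rose (1.39-fold) in the knockout against wild type.

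Of 14 tested nuclear regulators of respiratory genes, 4 fell and 1 rose in the rescue against the knockout. MYC had 29859, 26161 and 26899 normalized counts in the rescue, against 37988, 41592 and 39582 in the knockout and 36755, 35492 and 34294 in wild type. The 3 groups were separate, with a 1.44-fold fall against the knockout (limma adjusted p = 0.000135) and a 1.28-fold fall against wild type (adjusted p = 0.00699). PPARGC1B, a coactivator of respiratory genes, fell 1.63-fold against the knockout (adjusted p = 0.0103), SIRT3 1.30-fold and PRKAA1 1.26-fold. GABPB1, a subunit of the ETS-type factor GABP, rose 1.22-fold (adjusted p = 0.0431). None of the 14 passed limma's test between knockout and wild type, where 5 had an unadjusted p under 0.05 and 4 were called higher and 1 lower with the replicate block.

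The tricarboxylic acid cycle feeds the chain with NADH and succinate and holds complex II as a step of its own. Of 18 genes of the cycle and of pyruvate dehydrogenase, none of them a respiratory chain member here, 11 fell and 1 rose in the rescue against the knockout, and 7 rose and 1 fell in the knockout against wild type. IDH3A, a subunit of the NAD-dependent isocitrate dehydrogenase, had 2803, 2228 and 2535 normalized counts in the rescue, against 4366, 4035 and 3938 in the knockout and 2712, 2709 and 2651 in wild type. It fell 1.63-fold in the rescue against the knockout and rose 1.53-fold in the knockout against wild type (limma adjusted p = 9.35e-05 and 0.000412). IDH2, the NADP-dependent enzyme of the mitochondrion, had 13214, 14993 and 13647 normalized counts in the rescue, against 7715, 7977 and 7378 in the knockout and 13070, 14272 and 11604 in wild type. Its knockout libraries were the 3 lowest, and it was 1.81-fold higher in the rescue than in the knockout (limma adjusted p = 2.11e-05) and 1.69-fold lower in the knockout than in wild type (adjusted p = 7.96e-05). In the rescue against wild type no gene of the 6 lists passed except MYC.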

How the data were processed

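Polyadenylated or ribosome-depleted RNA of Z138 cells was sequenced, per the labels' protocols. The submitters' processing notes name FastQC 0.11.9, Trimmomatic 0.40, kallisto 0.46.1, R 4.3.2, DESeq2 1.24.0 and GRCh38.p13. The authors deposited 1 table of log2 values per gene and library. All libraries share its lowest value, and the values follow a variance-stabilizing form rather than log2 CPM, so normalized counts were recovered by inverting that form. Folds are ratios of mean normalized counts, and log2 differences are on the deposited scale, which understates changes of low genes.

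Group means over all 9 libraries were fitted with limma 3.58.1 in R 4.3.3 (trended prior variance, Benjamini-Hochberg adjustment over 11542 genes with at least 1 CPM in at least 3 libraries, threshold 0.05); 5044 genes were left out. DESeq2 was not run here, since the table holds no counts. Batch numbers in the labels equal the replicate numbers and so pair the libraries across groups; deviations of same-numbered libraries from their group means correlated at 0.187 to 0.51. Alternatives were the replicate block, other filters, scales and centrings, fits of 2 groups, left-out libraries and, added later, left-out batches. On data simulated for the knockout against wild type over 11542 genes, 28% of genes changed 1.25-fold, 78% changed 1.5-fold and 96% changed 2-fold were recovered, with 4.43% false calls. The simulation set the spread by a formula from each gene's mean level and did not estimate it from these libraries. It held no batch effect and changed 50 genes per fold size. The recovered shares may therefore not hold for the members.

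Lengths and positions came from GENCODE 29 on GRCh38 and promoter windows from RefSeq on GRCh38.p14. Figures were drawn with matplotlib 3.10.9. The members, the 6 lists and the tests were chosen with earlier results of these data known. Named genes were all mitochondrial members and, per complex and comparison, up to 5 called members with the smallest adjusted p, with the genes highest and lowest in level and isoform pairs; others were named after their values were seen. Reads of copies, overlapping genes and read-through loci may be exchanged. Intervals for single counts are not given, since depth was only estimated.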

Additional observations from a re-analysis of the deposited data

How the results depend on the processing

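Of the 33 respiratory chain calls picked by the rule for named genes, over the 3 comparisons, 0 changed direction under the replicate block, the other filters, scales and fits, or with a single library left out; left-out batches and other genes in the text were not followed call by call. All 33 were kept with the replicate block and with a stricter filter, 27 to 32 under the other settings that kept every library of the groups compared, and 17 to 32 when a single library was left out. In the rescue against the knockout, members called lower numbered 40 with the replicate block and 14 to 38 with a library left out, 12 without batch 1 and 8 without batch 3, while all genes called numbered 1167 without batch 1 and 993 without batch 3, against 2556; 1 member was called higher when only these groups were fitted. In the knockout against wild type, the replicate block gave 2481 calls over all genes, against 1470, with 20 members higher and 3 lower. The log2(CPM + 1) scale gave 2 lower and the fit of only these groups 5 higher. With a library left out, calls numbered 938 to 1395 over all genes, 3 to 13 members higher, 0 to 2 lower and 0 to 1 mitochondrial. Without batch 1 there were 575 calls, 1 member higher and 0 lower; without batch 2, 0 lower; without batch 3, 574 calls, 6 higher, 0 lower and 4 mitochondrial. In the rescue against wild type, the replicate block gave 930 calls over all genes, against 470. With a library left out there were 230 to 427 calls, 0 to 2 members higher, 0 to 1 lower and 0 to 2 mitochondrial. Calls fell to 146, 249 and 111 without batch 1, 2 and 3, and 0 members were lower there or when only these groups were fitted. Leaving out libraries or batches leaves fewer samples by construction; for the other settings the cause was not tested. With mitochondrial counts left out of the denominator, the summed nuclear share averaged 1.26% in the rescue, 1.41% in the knockout and 1.33% in wild type, against 1.23%, 1.38% and 1.30%. In data simulated for the knockout against wild type with an assumed spread, 28% of changes of 1.25-fold were recovered. Smaller changes and the other comparisons were not simulated.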
